A study of Drosophila melanogaster with 3 samples.

Results

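Vrille binding was described at the following genes of fat storage and lipid synthesis in Drosophila melanogaster: ACC, FASN1, Desat1, Gpdh1, Lpin, mdy, Lsd-1, Lsd-2, bmm and SREBP, 10 of 13945 protein-coding genes. They were chosen by name, with earlier results of these data known. An entry of a peak list was given to a gene when its summit, the position of highest enrichment, lay in the gene or within 1 kb of it. All 10 genes had at least 1 peak, beside 33.9% of all protein-coding genes and an average of 51.9% over the members' deciles of gene length. Of the 9264 peaks in the depositors' optimal list, 37 belonged to these 10 genes. The highest peak lay in Lpin, at 4.76 ± 0.789 (SD, n = 3) times the median peak of that list. The gene whose highest peak was weakest was the lipase gene bmm, at 0.862 ± 0.313 (SD, n = 3).

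Chromatin was immunoprecipitated and sequenced (ChIP-seq) from whole animals at the white prepupa stage, when the larva has become still and its cuticle begins to form the puparium. The animals were males and females pooled, from 1 transgenic line carrying a vri transgene with a GFP tag at the C terminus, and their age is given as unknown. The immunoprecipitation used an antibody against GFP, although 1 label field gives the antibody as vri. There were 3 biological replicates of 1 group, so nothing was compared between conditions. A library without the fusion or without immunoprecipitation was not analysed here. Because whole animals were used, a peak averages over all tissues, and binding in a few cells and weak binding in many cannot be told apart.

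The files hold, for each replicate and for the reads of all replicates pooled, 30000 entries. They also hold an optimal list of 9264 peaks that passed the irreproducible discovery rate procedure (IDR), which scores how alike peaks rank between lists. Not every optimal peak was high in all 3 replicates: 70.5% matched one of the 9264 highest entries of each, and 140 had no entry in replicate 2. No read counts are listed, which leaves the depth unknown. Signal, the peak height the depositors list, was divided in each replicate by that replicate's median at the optimal peaks, which was 88.2, 50.8 and 84.9 in replicates 1, 2 and 3. A relative signal of 1 is therefore the median optimal peak of that replicate. With 3 replicates of 1 group, the exact sign permutation test cannot go below a two-sided p of 0.25, so differences between genes are described by whether their replicate values overlap.

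Vrille is a bZIP transcription factor. In the fly it is known as a repressor within the circadian clock, competing with the activator Pdp1 for the same DNA words, and as a gene induced early by the steroid hormone ecdysone. Flies store fat as triacylglycerol in lipid droplets, mostly in the fat body, and prepupae do not feed, so they live on what the larva stored. Fatty acids are made from acetyl-CoA by ACC and FASN1 and desaturated by Desat1. They are joined to a glycerol backbone, supplied in part by Gpdh1, through steps that include Lpin and mdy, and the finished droplet is coated by Lsd-1 and Lsd-2 and broken down by the lipase bmm.

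The sequences below show the member peaks in which a word bound by Vrille, or a near match to it, lay within 50 bp of the summit. The word, called the VP box here, was TTATGTAA or TTACGTAA on either strand. Each run is the dm6 assembly from RefSeq on the strand of the gene, with 50 bases on either side of the summit, and capitals mark the match. All lie in intron 1 of their gene.
mdy, the exact box, chr2L:16818802-16818902, plus strand: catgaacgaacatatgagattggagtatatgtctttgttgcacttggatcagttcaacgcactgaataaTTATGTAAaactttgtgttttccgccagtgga
mdy, 1 mismatch, chr2L:16817884-16817984, plus strand: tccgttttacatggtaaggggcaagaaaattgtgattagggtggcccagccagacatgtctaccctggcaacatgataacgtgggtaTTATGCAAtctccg
FASN1, 1 mismatch, chr2L:3058320-3058420, plus strand: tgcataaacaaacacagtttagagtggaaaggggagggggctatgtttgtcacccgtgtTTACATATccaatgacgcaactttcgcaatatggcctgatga
Desat1, 1 mismatch, chr3R:12443345-12443445, plus strand: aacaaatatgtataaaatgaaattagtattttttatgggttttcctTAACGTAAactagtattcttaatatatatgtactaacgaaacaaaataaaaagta
bmm, 1 mismatch, chr3L:14782792-14782892, minus strand: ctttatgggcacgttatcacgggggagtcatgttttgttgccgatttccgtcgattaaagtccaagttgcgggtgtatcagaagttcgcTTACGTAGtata
The box in mdy was centred 22.5 bp after the summit. Counted from the 5′ end of the closest VP box word on the strand shown, the near matches differed from it by T6C in mdy, A8T in FASN1, T2A in Desat1 and A8G in bmm. The near match in Desat1 sat at the summit itself, its centre 0.5 bp before it (-0.5 bp), and that of FASN1 was centred 12.5 bp after the summit. Those of mdy and bmm lay near the edge of the window, 40.5 and 42.5 bp from the summit.

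Most of the 37 peaks held none of the words searched. The exact VP box was found in 1 of 37 member peaks (2.70%), beside 2.34% of all optimal peaks, and the box with up to 1 mismatch in 5 (13.5%), beside 23.4%. A looser box, the VP box with either base at its variable positions (TTATATAA, TTATGTAA, TTACATAA or TTACGTAA, which includes the VP box), was found in the same mdy peak alone, beside 3.38% of all. The C/EBP site (TTGCGCAA, TTGCGTAA, TTACGCAA or TTACGTAA, which shares its last word with the VP box) was in 0 member peaks, beside 1.96% of all. The cyclic AMP response element TGACGTCA was in 0, beside 0.421%, and the DREF site TATCGATA in 0, beside 0.788%. GAGAG, the word of the GAGA factor, was in 7 (18.9%), beside 16.7%, and they belonged to ACC, Desat1, Lpin, mdy and bmm. The E box CACGTG was in 1, beside 1.12%, and that peak was the highest peak of bmm, on the minus strand at chr3L:14781283-14781383.
bmm, E box and GAGAG: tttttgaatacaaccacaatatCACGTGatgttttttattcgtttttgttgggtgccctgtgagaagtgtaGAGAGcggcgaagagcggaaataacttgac
In 29 of the 37 peaks no exact word of those searched was found, which says only that these letters were not in the window.

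A summit in the gene or within 1 kb was found for 10 of 10 genes, whereas 33.9% of all protein-coding genes had one. Long genes have more room for a summit, and the members were long, with a median length of 8967 bp beside 2166 bp for all. The plot of genes by length shows 5 of them in decile 9 of length, where 55.1% of genes had a peak, and ACC and Lpin in decile 10, the longest, where 63.6% did. Gpdh1 and SREBP lay in decile 8, at 42.9%, and Lsd-1 in decile 6, at 30.9%. Averaged over the members' deciles the share was 51.9%.

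**Figure D1:**
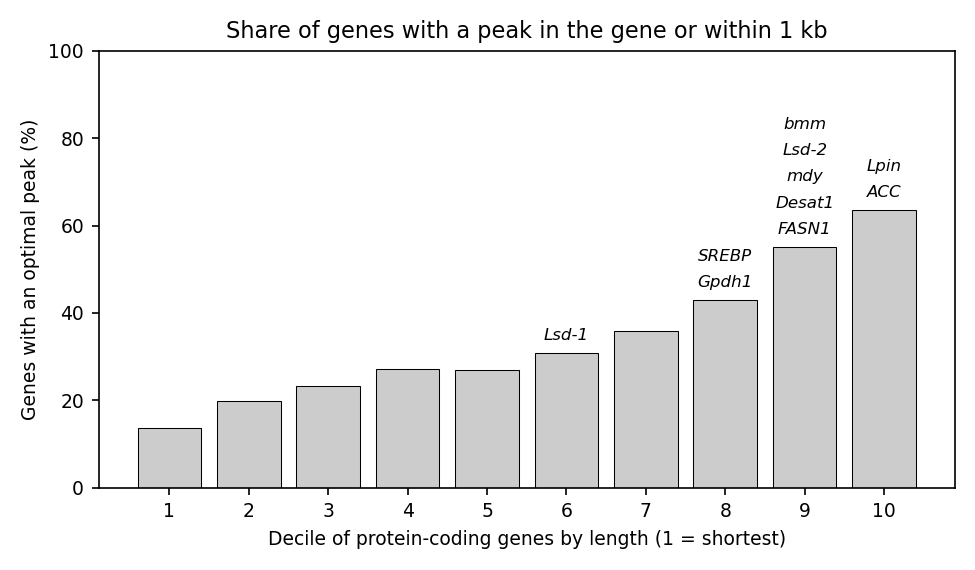
Share of protein-coding genes with an optimal summit in the gene or within 1 kb, in percent, by decile of gene length from shortest to longest. Bars are shares of all genes of a decile and rise from 13.7% to 63.6%; the names of the 10 lipid genes stand above the decile they fall in, and 7 of them are in the upper 2 deciles.

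At a start site the count was also 10 of 10, beside 27.5% of all genes. At least 2 peaks were found at 9 of 10, beside 17.0%. Lpin and bmm had 7 peaks each, mdy 5, ACC and Lsd-2 4, Desat1 3, FASN1, Gpdh1 and Lsd-1 2, and SREBP 1. The share of genes of the same length decile with fewer peaks ranged from 57.1% for SREBP, 64.6% for FASN1 and 68.2% for ACC to 92.3% for mdy and 97.5% for bmm. Although bmm had as many peaks as Lpin, none of them reached a mean of 1. When each peak instead took the overlapping entry of nearest summit, the divisor changed as well. The peak 725 bp downstream of the bmm start then averaged 1.05 ± 0.134 (SD, n = 3).

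**Figure D2:**
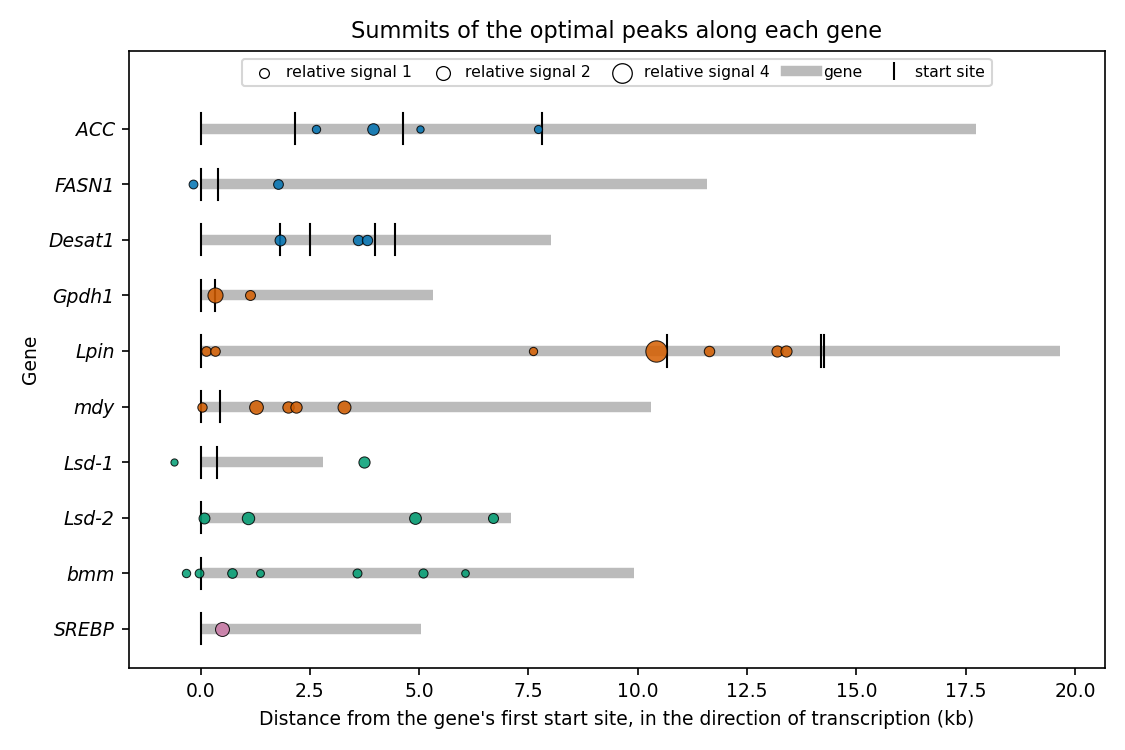
Summits of the 37 optimal peaks along each gene, in kb from its first start site in the direction of transcription. Grey bars are genes, vertical ticks annotated start sites, and circle area is the mean relative signal over replicates; the largest circle is in Lpin, just before the start site that most of its transcripts use.

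Of the 37 summits, 23 were at most 1 kb from a start site of their own gene, 11 in introns beyond that distance, 2 in exons beyond it and 1 outside the gene. Counted against any protein-coding start site, 25 of 37 were within 1 kb, beside 49.1% of all optimal peaks. This comparison is uneven: member peaks had to lie in a protein-coding gene or within 1 kb of it, and the others did not. By annotation 25 summits lay in introns, 23 of these in intron 1 of an annotated transcript, 5 in 5′ UTRs, 2 in 3′ UTRs, 4 upstream of the gene and 1 downstream. Another gene was in reach of 20 of the summits, and for 9 the nearest protein-coding start site was another gene's. Of the 37 peaks, 28 (75.7%) matched entries among the 9264 highest of every replicate, beside 70.5% of all optimal peaks. The median coefficient of variation over replicates was 17.9% for the member peaks and 21.6% for all, and the median of their mean relative signals was 1.05, beside 0.986.

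ACC, acetyl-CoA carboxylase, which commits acetyl-CoA to fatty acid synthesis, lies at chr2R:7974115-7991862 on the minus strand and had 4 peaks, all within 1 kb of 1 of its 4 start sites. The highest had relative signals of 1.53, 1.36 and 1.30 in replicates 1, 2 and 3, a mean of 1.40 ± 0.115 (SD, n = 3). All 3 replicates were above the median optimal peak, and the peak ranked 2372 of 9264. Its summit was in intron 1, 676 bp upstream of the start of transcripts RA, RB and RC, but 549 bp from the start of Nup44A, a nuclear pore gene inside ACC. The other 3 had means from 0.555 to 0.721, and the peak 87 bp upstream of the RE start varied most, at 0.596, 1.14 and 0.342 in the 3 replicates. That peak was above the median in replicate 2 alone.

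FASN1 encodes the main fatty acid synthase and lies at chr2L:3056598-3068177 on the plus strand. Its highest peak, the one with the near match shown above, was in intron 1, 1381 bp downstream of the RC start. It had relative signals of 0.873, 1.14 and 0.964, a mean of 0.993 ± 0.137 (SD, n = 3), and the replicates lay on both sides of the median optimal peak. A peak 173 bp upstream of the gene, with the neighbouring synthase gene FASN2 also in reach, had 0.869, 0.503 and 1.06. It is the only FASN1 peak within 1 kb of a start site, and replicate 2 was the low one.

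Desat1, the desaturase that puts a double bond into newly made fatty acids, lies at chr3R:12439600-12447616 on the plus strand and has 5 start sites. Its highest peak was 15 bp upstream of the RC start, with 1.34, 1.15 and 1.23 in the replicates and a mean of 1.24 ± 0.0964 (SD, n = 3). A pair of overlapping peaks stood 388 and 187 bp upstream of the RB start and shared 1 entry in each replicate, of 1.13, 0.992 and 1.22. The summit 187 bp away is the one that the near match TAACGTAA covers, and only 19.8% of the bases in the window shown are G or C, a share under which 0.615% of optimal peaks fall. The strongest peak near the gene fell outside the chosen distance: 1565 bp downstream of the end of Desat1 stood the optimal peak of rank 24, with 10.1, 7.70 and 9.90 in the replicates and a mean of 9.22 ± 1.32 (SD, n = 3). It lay 115 bp from the start of CG18549, was the only optimal summit between 1 and 2 kb from any of the 10 genes, and would be the highest of all if that distance were used. Just inside the distance, 930 bp from its gene, was the downstream peak of Lsd-1.

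Gpdh1 encodes the glycerol-3-phosphate dehydrogenase that makes the backbone of triacylglycerol from a glycolytic intermediate, and lies at chr2L:5943643-5948968 on the plus strand. Its highest peak lay in the 5′ UTR, 10 bp downstream of the start of RA, RB and RC, and ranked 951. Relative signals were 2.09, 3.08 and 1.99, a mean of 2.39 ± 0.599 (SD, n = 3), with replicate 2 above the others. A seminal fluid protein gene, Sfp26Ad, was also within 1 kb of that summit. The other peak, in an intron 817 bp downstream of the same start, had 1.39, 0.861 and 0.832, so that here replicate 1 was the high one.

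Lpin encodes Lipin, the phosphatidate phosphatase that makes diacylglycerol. It lies at chr2R:8136986-8156654 on the minus strand, with 11 transcripts from 4 start sites. The highest peak of the 10 genes stood 258 bp upstream of the start shared by 7 of these transcripts (RA, RB, RC, RD, RE, RH and RL), inside intron 1 of the longer RK. It had 4.41, 4.21 and 5.66 in the replicates and ranked 217, 231 and 105 in their lists and 152 among optimal peaks. Each replicate value was above every value of the highest peaks of the other 9 genes, and 95.7% of the 4733 genes with a peak had a lower highest peak, or 93.1% of the 887 in the same length decile. Only 18.8% of the bases within 50 bp of this summit were G or C, beside a median of 40.6% for optimal peaks, of which 0.421% were lower. None of the words searched, with or without a mismatch, was found there.

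The other 6 Lpin peaks were far weaker, with means from 0.715 to 1.30. The peak at 0.715 stood 113 bp from a start of the gene kermit and 3077 bp from the nearest Lpin start. Its summit lay within kermit, as did those of the 5′ UTR pair described next. The highest Lpin summit also had kermit in reach. A pair of peaks in the 5′ UTR, 122 and 338 bp after the upstream start that Lpin shares with kermit, drew on the same replicate entries. When each peak instead took the overlapping entry of nearest summit, their means were 0.613 ± 0.231 and 1.04 ± 0.271 (SD, n = 3). A second pair, 1016 and 811 bp upstream of the RG start, gave 1.09 ± 0.295 and 1.41 ± 0.361 (SD, n = 3) in the same way. That pair still shared its replicate 3 entry, at 1.30. The peak 962 bp downstream of the main start had 0.864, 1.72 and 0.829, high in replicate 2 alone.

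mdy, midway, encodes the diacylglycerol acyltransferase of the DGAT1 type, which makes triacylglycerol, and lies at chr2L:16816660-16826964 on the plus strand. Its highest peak, in intron 1 and 826 bp downstream of the RE start, had 2.13, 1.96 and 1.83 and a mean of 1.97 ± 0.152 (SD, n = 3). The peak 2841 bp downstream of that start was close in height, at 1.65, 1.82 and 1.82. The replicate values of the 2 peaks were barely apart, at 1.83 and 1.82. By nearest summit they met at 1.98, with 2.31, 2.13 and 1.98 for the highest peak and 1.79, 1.98 and 1.97 for the other. Between them lay a pair within 1 interval, 1545 and 1744 bp downstream, sharing entries of 1.28, 1.37 and 1.37. The exact VP box belongs to the second of that pair, which ranked 7298 of 9264 and averaged 1.17 ± 0.456 (SD, n = 3) by nearest summit. In replicates 1 and 2 its entry was still the one shared with the first of the pair, at 1.39 and 1.49. Its own entry in replicate 3 was at 0.650, below the median optimal peak. The remaining peak, 20 bp after the RA start, had 0.639, 0.727 and 1.37, above the median in replicate 3 alone. CG13280 was in reach of all 5 mdy summits and also holds them.

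Lsd-1 and Lsd-2 encode the fly perilipins, proteins of the lipid droplet surface. Lsd-1 lies at chr3R:23763857-23766662 on the plus strand, and neither of its summits was in the gene. The higher, 930 bp past its end and 104 bp from the start of CG10214, had 1.56, 1.25 and 1.11, a mean of 1.31 ± 0.230 (SD, n = 3). The lower, 619 bp upstream, was 25 bp from the start of udt and had 0.687, 0.337 and 0.591. Lsd-1 was thus the only one of the 10 genes with no summit that had a start of its own as the nearest one, and it counts among the bound genes through its neighbours' start sites.

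Lsd-2 lies at chrX:15069127-15076220 on the minus strand and had 4 peaks spread over the gene. The highest, in an intron 1093 bp downstream of its start site, had 1.65, 1.39 and 1.78, a mean of 1.60 ± 0.197 (SD, n = 3). The peak at the start itself, 66 bp into the 5′ UTR, had 1.07, 1.24 and 1.42. Lsd-2 also had both 3′ UTR peaks of the 10 genes, with means of 1.45 ± 0.101 and 1.05 ± 0.249 (SD, n = 3), at 4912 and 6682 bp from the start. The means of all 4 peaks were above the median optimal peak.

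bmm, brummer, encodes the fly counterpart of adipose triglyceride lipase and lies at chr3L:14776496-14786412 on the minus strand. Its 7 peaks ran from 340 bp upstream to 6042 bp downstream of its start site and had means from 0.602 to 0.968. The peak highest in the pooled reads, in intron 1 and 5079 bp downstream of the start, had 0.556, 1.18 and 0.847. By the mean of the replicates, the peak 725 bp downstream was higher, at 0.844, 1.09 and 0.971. Of these 2 peaks only the replicate 2 values exceeded the median optimal peak. By nearest summit, the replicate 3 value of the peak 725 bp downstream did as well, at 1.05. The summit 340 bp upstream was 39 bp from the start of Tdrd3, and shared entries with the summit 35 bp upstream of bmm in replicates 2 and 3.

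SREBP encodes the membrane-bound transcription factor that in flies responds to phosphatidylethanolamine and turns on lipid synthesis genes, ACC and FASN1 among them. It lies at chr3L:19793935-19798979 on the plus strand. Its 1 optimal peak, in intron 1 and 491 bp downstream of its start, had 1.91 in replicate 1 and 2.16 in replicate 3, a mean of 2.04 ± 0.177 (SD, n = 2). Replicate 2 had no overlapping entry among its 30000. The highest entry of replicate 2 at the gene, and its only one, ranked 6041 there, with a summit 894 bp away from the optimal one. Of all optimal peaks 140 (1.51%) lacked an entry in replicate 2, and 12 of them, this one included, ranked 1539 or better. When optimal peaks were required to match high entries in both remaining replicates, leaving out replicate 1 or replicate 3 removed the SREBP peak, and 9 of the 10 genes kept one.

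**Figure D3:**
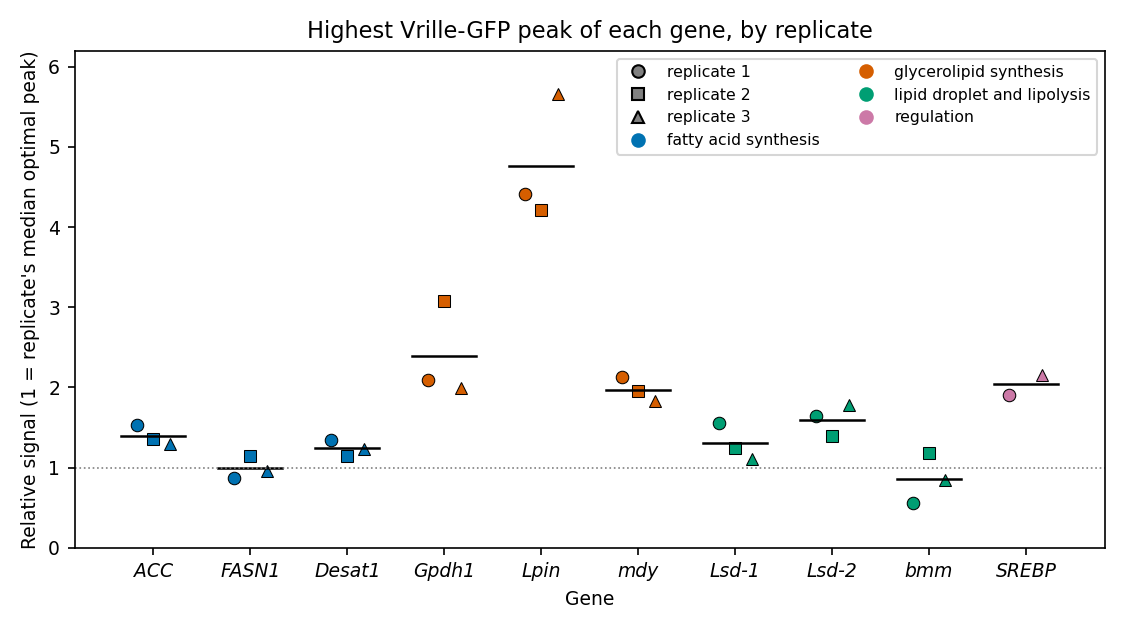
Relative signal of the highest optimal peak of each gene in replicate 1, 2 and 3 (circle, square, triangle); horizontal lines are means, colours the gene's role, and the dotted line is the replicate's median optimal peak. Lpin lies above all others at 4.21 to 5.66, bmm and FASN1 lie around 1, and SREBP has 2 points because replicate 2 held no overlapping entry.

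Ordered by the mean of their highest peak, the genes ran Lpin, Gpdh1, SREBP, mdy, Lsd-2, ACC, Lsd-1, Desat1, FASN1 and bmm. The replicate values of Lpin and Gpdh1 did not overlap, nor did those of mdy and Lsd-2 or of Desat1 and FASN1. In the other 6 neighbouring pairs they overlapped. Of these, Lsd-2 was above ACC in 3 of 3 replicates, while the order of each of the other pairs differed between replicates, and the pairs with SREBP could be compared in 2 replicates only. The 3 genes of glycerolipid synthesis had means of 2.39, 4.76 and 1.97, and those of fatty acid synthesis 1.40, 0.993 and 1.24. Every replicate value of the former 3, the lowest being 1.83, lay above every value of the latter, the highest being 1.53. This holds for summits within 1 kb: at 2 kb, a distance tried for these values after seeing the data, the highest peak of Desat1 is the one downstream of it, with a mean of 9.22 and each replicate above every glycerolipid value. The other lipid genes, described below, did not divide in this way. Their highest peaks had means from 0.603 to 4.45 in glycerolipid and phospholipid synthesis and from 0.555 to 2.88 in fatty acid supply and synthesis. The median over the 10 genes was 1.50, beside 1.27 for the highest peaks of all genes with a peak. These medians are not matched for length or peak number, since the members had a median of 3.50 peaks, beside 2.00. Among genes with a peak in the same length decile, 23.4% had a lower highest peak than bmm, 31.4% than FASN1, 44.1% than ACC and 45.1% than Desat1. The share was 59.1% for Lsd-2, 59.6% for Lsd-1, 69.5% for mdy, 73.7% for SREBP, 78.3% for Gpdh1 and 93.1% for Lpin.

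Below the threshold of the optimal list, the pooled list held a further 32 entries at the 10 genes, which makes 69 with the 37 optimal ones. Those nearest to the threshold were at Lsd-1, at rank 9575 and 74 bp downstream of a start site, and at SREBP, at rank 9896 and -397 bp from its start site, upstream of it. The former is the only pooled entry named here within Lsd-1 itself. At FASN1 an entry 45 bp downstream of a start ranked 12180.

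The other genes of lipid metabolism were taken from a list of 95 in 6 groups, of which 90 were found in the annotation by symbol. Of these 90, 65 (72.2%) had a peak, beside 33.9% of all genes and an average of 42.7% over their length deciles. By group, 10 of 12 genes of fatty acid supply and synthesis had a peak, 16 of 20 of glycerolipid and phospholipid synthesis, 6 of 9 of the lipid droplet and lipolysis, 8 of 11 of lipid transport, 12 of 17 of beta oxidation and 13 of 21 of regulation. Genes that break fat down carried peaks as well as genes that make it. Another gene was also in reach of the highest peaks of Hsl, Lip3, Mcad and Echs1, named below. The same was true of AcCoAS, Baldspot, Pcyt1, mino and Gk1 among the genes of synthesis, and of Seipin (Tsp3A) and Mtp (CG43739 and sky). The genes with the highest peaks of each group follow, 3 in each group except beta oxidation, for which 2 are given.

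In fatty acid supply these were AcCoAS, acetyl-CoA synthetase, at 2.88 ± 0.215, the elongase gene Baldspot at 1.79 ± 0.331, and Acsl, a long-chain acyl-CoA synthetase with 11 peaks, at 1.69 ± 0.316 (SD, n = 3 for each gene here and below). In glycerolipid and phospholipid synthesis they were Pcyt1, a rate-limiting enzyme of phosphatidylcholine synthesis, at 4.45 ± 1.12, the acyltransferase gene mino at 2.70 ± 0.454, and the glycerol kinase gene Gk1 at 2.66 ± 1.18. Pcyt1 was the nearest of these to Lpin, with replicate values of 3.32, 5.57 and 4.44. At the lipid droplet they were Seipin, a protein of droplet formation, at 2.78 ± 0.249, the hormone-sensitive lipase gene Hsl at 2.00 ± 0.0639, and the lipase gene Lip3 at 1.98 ± 0.496. Each of these 3 exceeded the 3 droplet members in mean.

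The highest peak of the whole list was at fabp, a fatty acid binding protein, with 9.95, 12.6 and 9.42 in the replicates and a mean of 10.7 ± 1.71. It was in an intron 4029 bp from the nearest fabp start, with the mitochondrial citrate carrier gene sea also in reach, and ranked 17 of 9264. Among the other transport genes followed LpR2, a lipophorin receptor, at 4.08 ± 0.469, and Mtp at 1.47 ± 0.322, whose summit lay downstream of the gene. In beta oxidation the highest were Mcad, an acyl-CoA dehydrogenase, at 2.76 ± 0.804, and the enoyl-CoA hydratase gene Echs1 at 2.67 ± 0.611. In regulation they were Crtc, the coactivator of CREB, at 5.85 ± 0.128, the ecdysone-induced nuclear receptor gene Eip78C at 5.10 ± 1.49, and CrebB, the fly CREB, at 4.07 ± 0.696. The replicate values of Crtc, 5.91, 5.71 and 5.94, all lay above those of Lpin.

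The 25 genes without a peak include relatives of the members. They were Desat2 and FASN3 in fatty acid synthesis, Dgat2, Agpat1, PGS1 and Pcyt2 in glycerolipid and phospholipid synthesis, and Jabba, mag and CG5966 at the droplet and in lipolysis. In transport they were apolpp, which encodes the main lipoprotein of the blood, GLaz and NLaz, and in beta oxidation CPT2, Had1, Mtpalpha, Acox3 and Pex5. In regulation they were S1P and S2P, the proteases that release SREBP, with Akh, AkhR, AMPKalpha, Sirt1, srl and svp.

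**Figure D4:**
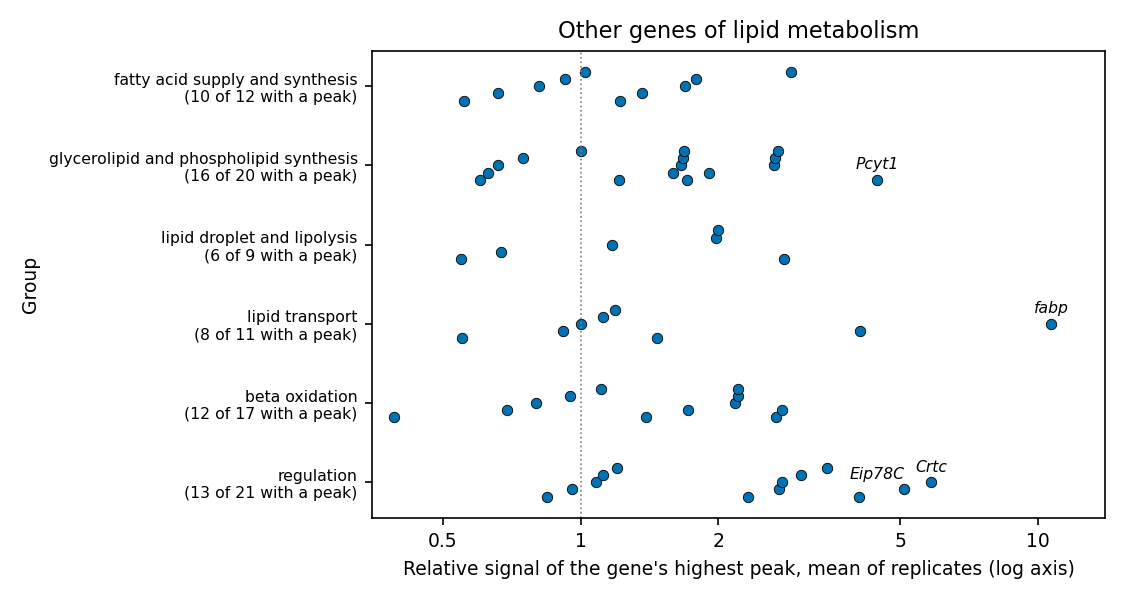
Mean relative signal of the highest optimal peak (log axis) of the 65 other lipid genes with a peak, 1 point per gene, in 6 groups; vertical offsets within a group only separate points. The points run from 0.390 to 10.7 for fabp, and every group holds genes on both sides of the dotted line at 1.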

How the data were processed

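Signal in column 7 of the peak lists was made by the authors and used as deposited, in dm6 coordinates. The depositors' notes name the lists as peaks and background used as IDR input, per replicate and pooled, and as optimal IDR peaks. Which aligner, peak caller and IDR cutoff were used is not given in the sources used here, and 0 control libraries were analysed. The lists made for dm3 were not used. The 3 replicates are labelled as biological replicates of 1 group.

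Summits were assigned to genes of Ensembl release 115. RefSeq coordinates were identical for 13943 of 13944 protein-coding symbols and for all 10 members. For each optimal peak, a replicate's value is its highest entry overlapping by at least 1 bp, divided by that replicate's median. This gave 10 of the 37 member peaks an entry that another of them also drew on. A gene's highest peak is the one of highest pooled signal. Motifs were searched within 50 bp of summits. Entries and genes off the 6 main chromosome arms were left out. Of the other lipid genes, the 3 with the highest peak in each group were named, together with those without a peak. A gene of the beta oxidation group that this rule names is not reported here. Python 3.11.15, NumPy 2.4.6, pandas 2.3.3 and matplotlib 3.10.9 were used, and the gene assignment and the motif search were checked on simulated data. The members, lists and motifs were chosen with earlier results of these data known, so counts stand beside the same count over all genes or peaks, with no test. Alternatives were other distances, the stronger 50% of peaks, each replicate alone, other matching rules and leaving out each replicate.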

Additional observations from a re-analysis of the deposited data

How the results depend on the processing

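No paired analysis was possible because there is 1 group. All 10 genes had a peak at a distance of 2 kb, beside 39.9% of all genes, and with RefSeq coordinates, beside 33.9%. All 10 also had one in the highest entries of replicates 1, 2 and 3 alone, beside 36.4%, 34.3% and 34.5%. In replicate 2, SREBP counted through the entry 894 bp from its optimal summit, not at the optimal peak itself. At 0 and 500 bp 9 genes had a peak, beside 18.8% and 30.1%, and Lsd-1 was lost. Among the stronger 50% of peaks 9 genes had a peak, beside 23.9% of all genes, with bmm lost, and 7 had one within 1 kb of a start site, beside 18.2%, with FASN1, Lsd-1 and bmm lost. Without single replicates 9 to 10 genes had a peak, beside 28.4% to 29.9% of all, and 7 to 10 had one at a start site, beside 22.1% to 23.5%. SREBP was lost without replicate 1 or 3, and FASN1 and Lsd-1 then lost their start site peak as well. With each summit counted for the nearest start site only, 9 genes had a start site peak, all but Lsd-1, beside 22.1% of all genes. Of the 90 other lipid genes, 48 to 67 had a peak over the distances tried, beside 18.8% to 39.9% of all genes, 50 among the stronger 50% of peaks, beside 23.9%, and 55 to 59 without single replicates. Within 25 bp of the summit the VP box was in 0 member peaks and its form with 1 mismatch in 2, beside 1.30% and 12.8% of all optimal peaks. Of 60 alternative values of the highest peaks, 54 moved by less than the SD. Those that leave out 1 replicate could not move by as much as the SD, whatever the data, so their staying shows nothing. The 6 values that moved further were those of ACC, Desat1 and mdy under the other matching rules. They were 1.51, 1.35 and 2.14 with the entry of nearest summit and 1.51, 1.34 and 2.14 with an overlap of at least 50%. Both rules also change the divisor: by nearest summit the replicate medians were 81.4, 46.8 and 78.5, and 28 of 29 values of highest peaks came from the same entry as before. Lpin was then at 5.16. At 2 kb, added after seeing the data, the highest peak of Desat1 was 9.22 and those of the other 9 genes were as reported. Depth is unknown, so no counting error can be given.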
